A study of Mus musculus with 89 samples.

Results

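The N-myc downstream-regulated gene (NDRG) family was examined as 4 mouse genes, Ndrg1, Ndrg2, Ndrg3 and Ndrg4, of 9765 genes in 2 deposited tables of exon skipping. An event in these tables is an exon with the exon before and the exon after it, the reads that include it and the reads that skip it. All events of the 4 genes were taken, which gave 30 of 27900 events in the table of the HSV libraries and 4 of 5608 events in the table of the dCas9-SET2 runs. The family was proposed with the inclusion levels and the total reads of both tables in view, that is, it was chosen by those values. Both are therefore given as a description, and no p-value of a fit made here is printed for a member. Adjusted p-values of the authors are quoted for members only as deposited values.

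The libraries came from the nucleus accumbens, a brain region of reward, of wild type C57BL/6 mice at 8 weeks of age, and the series addressed the histone mark H3K36me3 and alternative splicing. In the HSV groups, herpes simplex virus carried Set2, the enzyme that places H3K36me3, Set2 with the substitution R195G, or GFP, with 3 RNA libraries per group. In the dCas9-SET2 groups, a catalytically inactive Cas9 fused to SET2 was delivered together with a guide against Srsf11, which encodes a splicing factor, or a non-targeting guide; each guide had 16 RNA runs, 4 for each of 4 sample names. The remaining 48 of the 89 samples were not analysed here. The tissue was a micro-dissected punch, so all cell types of the punch are mixed, and the sources used here do not say which cells took up a virus or construct. The labels do not say whether punches of several animals were pooled.

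NDRG proteins share the fold of alpha/beta hydrolases but lack the catalytic residues of those enzymes. NDRG1 is phosphorylated by the kinase SGK1 and then by GSK3, and its loss causes a hereditary demyelinating neuropathy in humans. In brain, NDRG1 is known from oligodendrocytes, NDRG2 from astrocytes, and NDRG3 and NDRG4 from neurons.

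The HSV table holds 5 libraries in sets of 3 and 2 with no names, so no virus could be assigned to a set, and every value is given by set. They are called the 3-library set and the 2-library set. Reads summed over events ranged over 7428974 to 8341849 per library in the 3-library set and 8366275 to 8638249 in the 2-library set. Replicate 2 of the 2-library set stood apart in the summed coverage of 2 choroid plexus markers, Ttr and Clic6. Coverage is given in CPM (reads over a gene's deepest event, scaled to a common library total). The sum was 9966 CPM there, 434 in the other library of its set and 28.5 to 37.5 in the 3-library set. Ttr alone held 9888 of the 9966 CPM and 405 of the 434 CPM. In the dCas9-SET2 table the runs at positions 4 and 8 held the same reads in every event of each set and were counted once, which left 15 distinct runs per set. Those runs held 56946 to 84870 reads in the second set and 79799 to 106251 in the first set, and nothing in the table says which guide a set received. Nothing says that the libraries of a set came from separate animals, so the spread within a set may be technical.

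The exons of the family repeat in length from gene to gene. Of 24 distinct runs of 3 exon lengths around a family exon, 4 occurred in more than 1 gene and 2 in 3 genes. The run of 52, 48 and 36 nt was found in Ndrg2, Ndrg3 and Ndrg4, and the run of 121, 63 and 61 nt in Ndrg1, Ndrg3 and Ndrg4. Ndrg2 and Ndrg4 also shared the runs of 61, 87 and 57 nt and of 87, 57 and 104 nt. An exon of 52 nt followed by a 39-nt cassette exon stood in Ndrg3 and in Ndrg4, ahead of a long last exon. That exon was 1537 nt in Ndrg3 and 1775 nt in Ndrg4 in the dCas9-SET2 table, and it ended 3 nt (Ndrg3) and 4 nt (Ndrg4) from the gene end of RefSeq. Of the 23 distinct family exons listed in the HSV table, 19 had a length that is a multiple of 3, the 39-nt exons among them. Whether these exons are coding was not looked up here.

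The paired 39-nt exons of Ndrg4 and Ndrg3 differed between the library sets in opposite directions: that of Ndrg4 was included less in the 3-library set and that of Ndrg3 was included more. Ndrg4, the paralog best known from brain and heart, carries the exon at chromosome 8, 98236225 to 98236263 on the plus strand, in the coordinates of the HSV table, whose build is not stated. Inclusion level (PSI) is the share of transcripts with the exon, from reads divided by the length of each form. For the Ndrg4 exon it was 0.896, 0.922 and 0.910 in the 3-library set, against 0.964 and 0.970 in the 2-library set. All libraries of the 3-library set lay below both of the 2-library set. The mean was 0.909 ± 0.0131 (SD, n = 3) in the 3-library set and 0.967 ± 0.00443 (SD, n = 2) in the 2-library set, a difference of -0.0574, or -1.07 on the logit scale (SE 0.0753). The event was among the deepest in the table, at rank 16 of 7754 fitted events by reads. Its skipping reads numbered 569, 351 and 432 in the 3-library set, against 316 and 212 in the 2-library set. Its inclusion reads numbered 6172, 5233 and 5528 in the 3-library set, against 10565 and 8623 in the 2-library set.

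Ndrg3, a paralog whose human protein binds lactate in hypoxic cells, carries its 39-nt exon at chromosome 2, 156755668 to 156755706 on the minus strand. Its inclusion level was 0.196, 0.229 and 0.166 in the 3-library set, against 0.104 and 0.095 in the 2-library set. The sets did not overlap, and most transcripts skipped the exon in each of the 5 libraries. The mean was 0.197 ± 0.0313 (SD, n = 3) in the 3-library set and 0.0999 ± 0.00631 (SD, n = 2) in the 2-library set, a difference of 0.0970, or 0.79 on the logit scale (SE 0.116). Behind these values stood 244, 234 and 172 inclusion reads and 794, 627 and 686 skipping reads in the 3-library set, against 150 and 101 inclusion reads and 1022 and 760 skipping reads in the 2-library set. By size of the PSI difference the Ndrg3 exon ranked 1426 and the Ndrg4 exon 2546 of 7754 events, so neither was among the most changed of the table. Without replicate 2 of the 2-library set, the library with the highest choroid plexus coverage, the PSI differences were 0.0925 for Ndrg3 and -0.0542 for Ndrg4. Replicate 1, which remained, also stood above the 3-library set in that coverage, at 434 CPM against 28.5 to 37.5. Most of this was Ttr. Clic6 had 29.8 CPM in replicate 1, against 21.9 to 27.7 in the 3-library set.

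**Figure D1:**
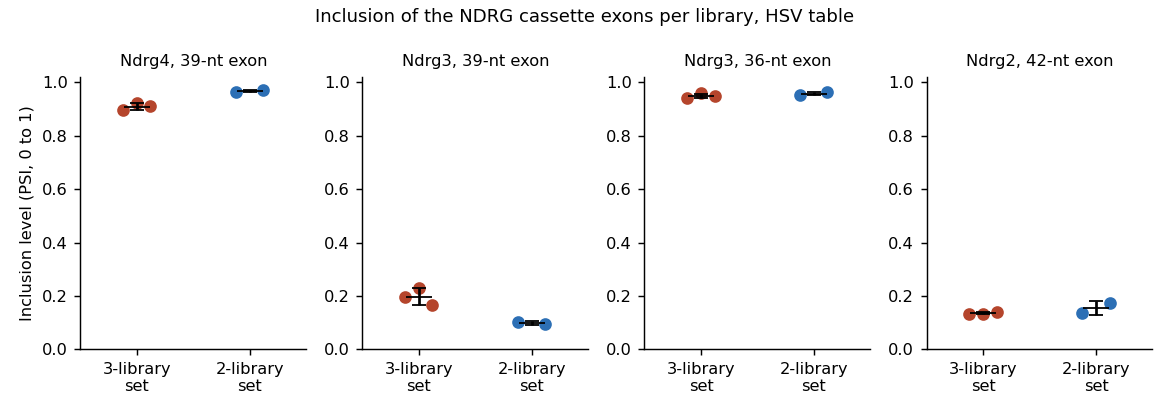
Inclusion level (PSI, 0 to 1) of 4 NDRG exons in each library of the 3-library set (red) and the 2-library set (blue), with the mean and SD as black bars. The 39-nt exon of Ndrg4 lay at 0.896 to 0.922 in the 3-library set and at 0.964 and 0.970 in the 2-library set, and that of Ndrg3 at 0.166 to 0.229 in the 3-library set and at 0.095 and 0.104 in the 2-library set.

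Among the fitted events, the alternative exons of Ndrg2 (42 nt) and Ndrg3 (36 nt) differed less between the sets. The 42-nt exon of Ndrg2, a paralog used as an astrocyte marker, lies between exons of 81 and 106 nt at chromosome 14, 52530761 to 52530802 on the minus strand. It was included at 0.134, 0.132 and 0.141 in the 3-library set, against 0.138 and 0.173 in the 2-library set, and the sets overlapped. The difference of -0.0199 became -0.0375 without replicate 1 and -0.00221 without replicate 2 of the 2-library set. The 36-nt exon of Ndrg3 between exons of 102 and 106 nt was mostly included, at 0.943, 0.959 and 0.950 in the 3-library set, against 0.954 and 0.963 in the 2-library set. Here too the sets overlapped, and the means differed by -0.00792.

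Of the 30 family events, 9 in 3 genes had enough reads of both forms to be fitted, and 2 of the 9 passed an adjusted p of 0.05 with limma, the 39-nt exons of Ndrg4 and Ndrg3 (a limma fit with no precision weights called 0 of the 9 and 0 of all 7754 events). Over all fitted events the share was 3.69%, with 1.69% higher and 2.00% lower in the 3-library set. The same 2 of 9 had sets that did not overlap, which held for 28.4% of all fitted events. The rule that chose the family used this contrast, so nothing is read from these counts. An FDR below 0.05 stood in the authors' deposited table for 2 of the 30 events, against 4.87% of all events. The remaining 5 fitted events, exons of 102 and 121 nt of Ndrg3 and of 48, 52 and 66 nt of Ndrg4, had inclusion levels of at least 0.991 in all libraries. The 66-nt exon of Ndrg4 ends at the same base as the 48-nt exon, starts 18 nt ahead of it and shares its skipping reads.

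The other 21 events had under 10 reads of the rarer form. In 20 of them, the single event of Ndrg1 included, inclusion was at least 0.946 in every library, with at most 4 skipping reads per library over 14 to 13925 total reads. The remaining one was the 123-nt exon of Ndrg3, near the start of the gene. It had 0, 2 and 4 inclusion reads with 20, 16 and 9 skipping reads in the 3-library set, and 1 and 0 inclusion reads with 16 and 5 skipping reads in the 2-library set. These reads are too few to set the levels apart. Ndrg3 also listed its 39-nt exon after the 36-nt exon, with the 52-nt exon left out, on 14 to 38 reads per library at inclusion levels of 0.946 to 1.

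In both genes with a 39-nt cassette exon, the mean levels of the included and the skipped form differed in opposite directions. Form levels are CPM per kb of form length. In Ndrg4 the included form averaged 7806 ± 307 in the 3-library set and 12499 ± 1784 in the 2-library set, a ratio of 0.625. The skipped form of Ndrg4 averaged 781 ± 147 in the 3-library set and 433 ± 121 in the 2-library set, a ratio of 1.80. The included form of Ndrg4 was thus the lower one in the 3-library set while its minor form was the higher one. In Ndrg3 the included form averaged 299 ± 44.0 in the 3-library set and 163 ± 45.1 in the 2-library set, a ratio of 1.83. The skipped form of Ndrg3 averaged 1222 ± 85.9 in the 3-library set and 1463 ± 304 in the 2-library set (SD, n = 3 and 2 throughout), a ratio of 0.836. Only the skipped form of Ndrg3 overlapped between the sets, among these 4 forms. For the 42-nt exon of Ndrg2 both forms were higher in the 3-library set, with ratios of 1.57 for the included and 1.84 for the skipped form.

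**Figure D2:**
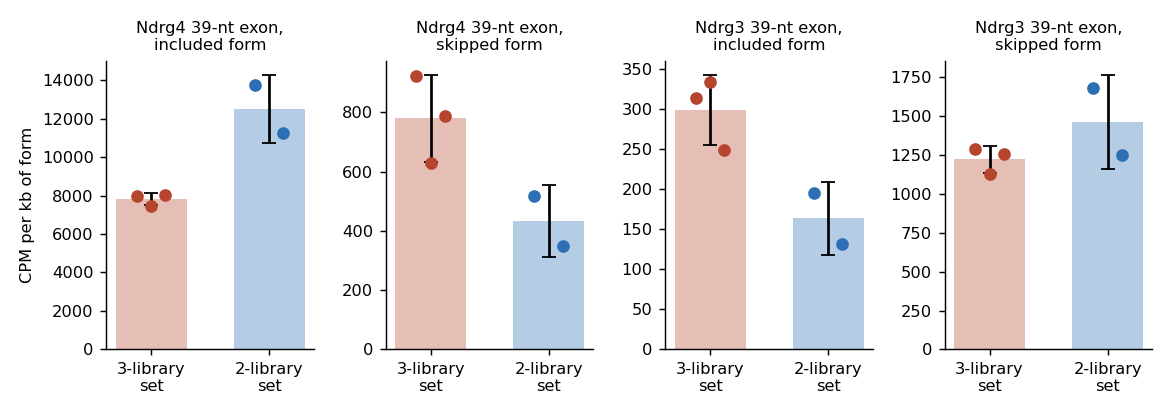
Levels of the included and skipped forms of the 39-nt exons of Ndrg4 and Ndrg3 in CPM per kb of form, with each library as a point, the mean as a bar and the SD as an error bar, for the 3-library set (red) and the 2-library set (blue). The ratio of the 3-library set over the 2-library set was 0.625 for the included and 1.80 for the skipped form of Ndrg4, and 1.83 for the included and 0.836 for the skipped form of Ndrg3.

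The 52-nt exon ahead of the Ndrg3 cassette exon is listed with either of 2 exons after it. With the 39-nt exon next, its inclusion reads numbered 506, 465 and 453 in the 3-library set, against 488 and 320 in the 2-library set. With the last exon next, they numbered 1088, 890 and 984 in the 3-library set, against 1375 and 977 in the 2-library set. On scaled reads the log2 difference was 0.35 for the first pairing and -0.15 for the second. The 2 counts share the reads on the 52-nt exon and on the junction before it. The reads that tell them apart lie on the junction after the 52-nt exon and also count in the 39-nt event. The 2 pairings are therefore no separate observation of that exon.

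Exons of other genes with the most similar inclusion levels were ranked by Euclidean distance over the 5 libraries. Nearest to the 39-nt exon of Ndrg4 were a 117-nt exon of Rnpep (distance 0.0286), a 97-nt exon of Ppif (0.0303) and a 35-nt exon of Pkp4 (0.0323). Nearest to the 39-nt exon of Ndrg3 were a 24-nt exon of Mapk8ip3 (0.0352), a 102-nt exon of Cadm3 (0.0557) and a 198-nt exon of Lrrc49 (0.0575). The Mapk8ip3 exon was included at 0.201, 0.208 and 0.186 in the 3-library set, against 0.092 and 0.081 in the 2-library set. Nearest to the 42-nt exon of Ndrg2 were a 42-nt exon of Bcas1 (0.0445), an 89-nt exon of Pisd-ps1 (0.0463) and a 528-nt exon of Epb41l3 (0.0464). Of 70 fitted events with a 39-nt exon in all genes, 10 passed an adjusted p of 0.05 in limma, 6 of them higher in the 3-library set. Over all fitted events the share was 3.69%. The 10 include the exons of Ndrg4 and Ndrg3 by which the family was chosen, so nothing is read from this count.

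Coverage, the reads over the deepest event of a gene, set the paralogs apart by abundance, and Ndrg2 and Ndrg4 by direction. Levels between genes were compared per length, in CPM per kb of form. Ndrg4 stood highest, at 8982 ± 425 in the 3-library set and 13416 ± 1485 in the 2-library set. Ndrg2 followed at 5143 ± 213 in the 3-library set and 2938 ± 40.7 in the 2-library set. Next in this order was Ndrg3, at 1513 ± 45.5 in the 3-library set and 1487 in the 2-library set, where the libraries stood at 1416 and 1558. Ndrg1, the paralog of myelinating cells, was lowest, at 315 ± 50.9 in the 3-library set and 320 ± 94.5 in the 2-library set (SD, n = 3 and 2). The order held in all 5 libraries, and no 2 neighbours overlapped in range over the libraries of a set. Of the 4 levels summed, Ndrg4 made up 56.3% in the 3-library set and 73.9% in the 2-library set, and Ndrg2 made up 32.2% in the 3-library set and 16.2% in the 2-library set.

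Ndrg2 coverage was higher in the 3-library set and Ndrg4 coverage was lower. Ndrg2 had 1263, 1164 and 1230 CPM in the 3-library set, against 703 and 689 in the 2-library set, a log2 difference of 0.81 (SE 0.0747). Ndrg4 had 2223, 2022 and 2140 CPM in the 3-library set, against 3428 and 2930 in the 2-library set, a log2 difference of -0.58 (SE 0.0826). Neither gene overlapped between the sets. All 5 Ndrg2 events were higher, by 0.75 to 0.83 on the log2 scale, and all 10 Ndrg4 events lower, by -0.64 to -0.54, but events of 1 gene share reads. Ndrg3 had 413, 396 and 420 CPM in the 3-library set, against 422 and 383 in the 2-library set, a log2 difference of 0.03 (SE 0.0853). Ndrg1 had 79.6, 60.3 and 61.4 CPM in the 3-library set, against 53.9 and 82.3 in the 2-library set, a log2 difference of -0.00 (SE 0.191). Both of these genes overlapped between the sets, and their signs turned with the library left out. For Ndrg1 the difference was -0.31 without replicate 1 and 0.30 without replicate 2 of the 2-library set, and for Ndrg3 it was 0.10 without replicate 1 and -0.04 without replicate 2. Of the 4 genes, 2 passed an adjusted p of 0.05 with limma, against 22.7% of 8201 genes, 13.2% higher and 9.47% lower in the 3-library set; the choice of the family used these reads, and nothing is read from the count. Without replicate 2 of the 2-library set the log2 differences were 0.79 for Ndrg2 and -0.69 for Ndrg4. Without replicate 1 of that set they were 0.82 for Ndrg2 and -0.46 for Ndrg4.

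**Figure D3:**
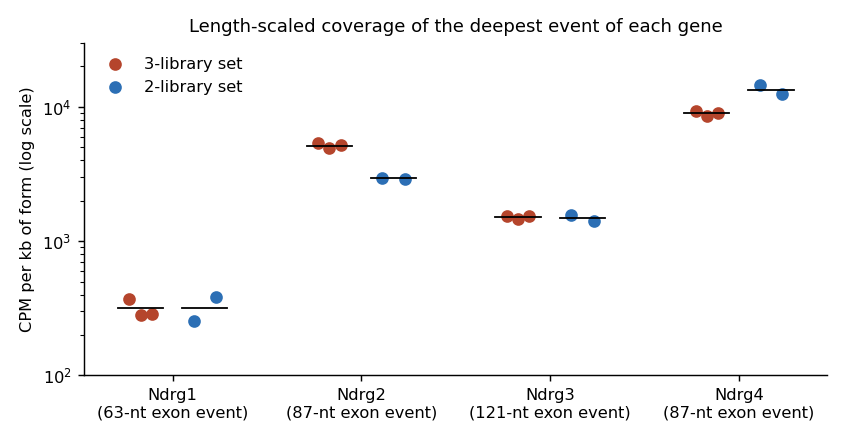
Coverage of the deepest event of each NDRG gene in CPM per kb of form (log scale), one point per library, with the mean as a line, for the 3-library set (red) and the 2-library set (blue). Ndrg4 averaged 8982 in the 3-library set and 13416 in the 2-library set, and Ndrg2 averaged 5143 in the 3-library set and 2938 in the 2-library set.

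Markers of the cell types in which the paralogs are known also differed between the sets. Counts of markers called higher or lower are those past an adjusted p of 0.05 in the limma coverage fit, which called 13.2% of all genes higher and 9.47% lower. In a bulk punch, fewer cells of a type and less RNA per cell cannot be told apart. For astrocytes, where NDRG2 is known, 3 of 8 measured markers, Aqp4, Slc1a3 and Atp1b2, were called higher in the 3-library set, and the other 5 lay between -0.20 (Slc4a4) and 0.36 (Gfap) on the log2 scale. The summed coverage of the 8 was 4285 to 4401 CPM in the 3-library set and 3920 to 4129 in the 2-library set. For oligodendrocytes, where NDRG1 is known, 8 of 11 were called higher, with sums of 9656 to 12544 in the 3-library set and 6981 to 9956 in the 2-library set. Those not called were Enpp2 at -1.07, Trf at 0.30 and Mag at 0.35 on the log2 scale. Enpp2 and Trf had 977 and 1127 CPM in replicate 2 of the 2-library set, against 140 and 560 in replicate 1. For medium spiny neurons, the principal cells of the accumbens, 8 of 9 were called lower, with sums of 3317 to 3574 in the 3-library set and 7979 to 9873 in the 2-library set; Drd1 and Adora2a were among those not measured. Drd2, Penk and Ppp1r1b, defining markers of the labelled region, were measured in each library. Of 6 general neuron markers 3 were called higher and 3 lower, with sums of 8329 to 9168 in the 3-library set and 7644 to 9156 in the 2-library set. Microglia markers were called higher for 4 of 8, with sums of 2004 to 2138 in the 3-library set and 891 to 1949 in the 2-library set, and interferon response genes for 11 of 11, with sums of 3008 to 3414 in the 3-library set and 80.7 to 182 in the 2-library set. Both measured choroid plexus markers were called lower in the 3-library set, and none of 7 vascular markers was measured. The part of these cell types in the NDRG differences was not tested.

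RefSeq promoter windows of build GRCm38.p6 were matched by symbol for 3 of the 4 genes, with 9 windows in all, each read as the 250 nt ahead of an annotated start. Of interest for a family named after its response to N-myc is the E-box CACGTG, a palindrome that Myc proteins are known to bind. It was found in 1 of the 9 windows, at the second annotated start of Ndrg4, and in 6.02% of 32851 mouse windows of the same length. The window is printed with the E-box in capitals, beside the first window of Ndrg2, the gene whose coverage differed in the other direction and whose windows hold none. The Ndrg4 window lies at chr8:95677513-95677762 on the plus strand and the Ndrg2 window at chr14:51914005-51914254 on the minus strand, both printed 5′ to 3′ in the direction of the gene.
Ndrg4, second start: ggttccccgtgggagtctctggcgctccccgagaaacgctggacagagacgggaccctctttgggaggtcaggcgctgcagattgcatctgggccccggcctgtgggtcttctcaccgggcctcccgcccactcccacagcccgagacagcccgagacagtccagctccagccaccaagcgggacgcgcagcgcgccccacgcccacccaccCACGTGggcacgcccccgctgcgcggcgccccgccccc
Ndrg2, first start: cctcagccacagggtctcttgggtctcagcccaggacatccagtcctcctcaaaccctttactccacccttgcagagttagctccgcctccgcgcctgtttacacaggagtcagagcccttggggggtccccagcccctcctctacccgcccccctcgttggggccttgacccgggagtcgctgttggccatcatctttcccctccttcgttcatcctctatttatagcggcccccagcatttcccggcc
The E-box of Ndrg4 begins 38 nt ahead of the start. The core ACGTG of the hypoxia response element was searched on both strands and is contained in the E-box, so its 2 matches in that window are the E-box itself, and no other family window held it (16.6% of all windows did). The core of the interferon response element, searched in the same way, was found in none of the 9 windows, against 2.98% of all windows. Which start was used in these libraries was not analysed here.

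Genes linked to the NDRG family were taken from 3 lists: the NDRG1 kinase pathway, regulators of NDRG transcription, and trafficking genes and reported partners. Of 13 measured genes of the NDRG1 kinase pathway, 6 fell in the 3-library set (log2 coverage, limma), and the median log2 difference was -0.37. Over all 8201 genes the median was 0.000535, and 22.7% were called, 13.2% higher and 9.47% lower. The list was fixed with earlier results of these data known, so nothing is read from its count or median. Of those that did not pass, Rictor lay at 0.80 (adjusted p = 0.178, limma) and Pdpk1 at -0.36 (adjusted p = 0.205, limma). Rictor had few reads, at 10.2, 10.8 and 6.85 CPM in the 3-library set, against 5.17 in both libraries of the 2-library set. Rptor at 0.19 and Mtor at 0.14 also lay above 0, and the rest that did not pass lay below it. Sgk1, the kinase that phosphorylates NDRG1, had 40.9, 33.7 and 33.4 CPM in the 3-library set, against 84.7 and 81.0 in the 2-library set. Its log2 difference in coverage was -1.21 (SE 0.161, adjusted p = 0.000146, limma), with no overlap between the sets. Akt2, a kinase of insulin signalling, fell by 0.95 on the same log2 scale (adjusted p = 0.000794, limma), and Sgk3, a paralog of Sgk1, by 0.79 (adjusted p = 0.00375, limma). Mapkap1, a subunit of the mTORC2 complex that activates SGK1, fell by 0.50 (adjusted p = 0.0270, limma), and Gsk3b, the kinase that follows SGK1 on NDRG1, fell by 0.37 (adjusted p = 0.0299, limma).

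Of 5 measured regulators of NDRG transcription, 1 fell, against 9.47% of all genes, with a median of -0.29. It was Mxi1, a partner of Max that opposes Myc, with a log2 difference of -0.67 (adjusted p = 0.00218, limma); Myc, Mycn and 6 others of the list of 13 were not measured. Of 7 measured trafficking genes and reported partners, 2 rose and 2 fell, against 13.2% and 9.47% of all genes, with a median of -0.33. With 5 and 7 measured genes, nothing is read from these counts. Ndfip1, an adaptor of ubiquitin ligases, had 1194, 1314 and 1293 CPM in the 3-library set, against 766 and 769 in the 2-library set, and rose by 0.72 (adjusted p = 2.03e-05, limma). Rab4b, a GTPase of endosome recycling, rose by 0.42 (adjusted p = 0.0292, limma). The synaptic fusion proteins Stx1a and Snap25 also fell. Stx1a fell by 0.61 (adjusted p = 0.0432, limma), and Snap25 fell by 0.38 (adjusted p = 0.0377, limma). Snap25 is also one of the neuron markers above.

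Of these 11 calls, 5 were also made without any one library, those of Sgk1, Akt2, Sgk3, Mxi1 and Ndfip1. The count was 5 without replicate 1 and 10 without replicate 2 of the 2-library set, and 6, 7 and 5 without replicates 1, 2 and 3 of the 3-library set. Gsk3b was lost without each library in turn (adjusted p 0.0628 to 0.0816, limma). Replicate 1 of the 2-library set also decided Mapkap1, Rab4b, Snap25 and Stx1a, whose adjusted p without it was 0.205 to 0.351 in limma. These genes were also lost without a library of the 3-library set (adjusted p 0.0597 to 0.147, limma), Mapkap1 and Stx1a without replicates 1 and 3, and Rab4b and Snap25 without each of the 3.

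**Figure D4:**
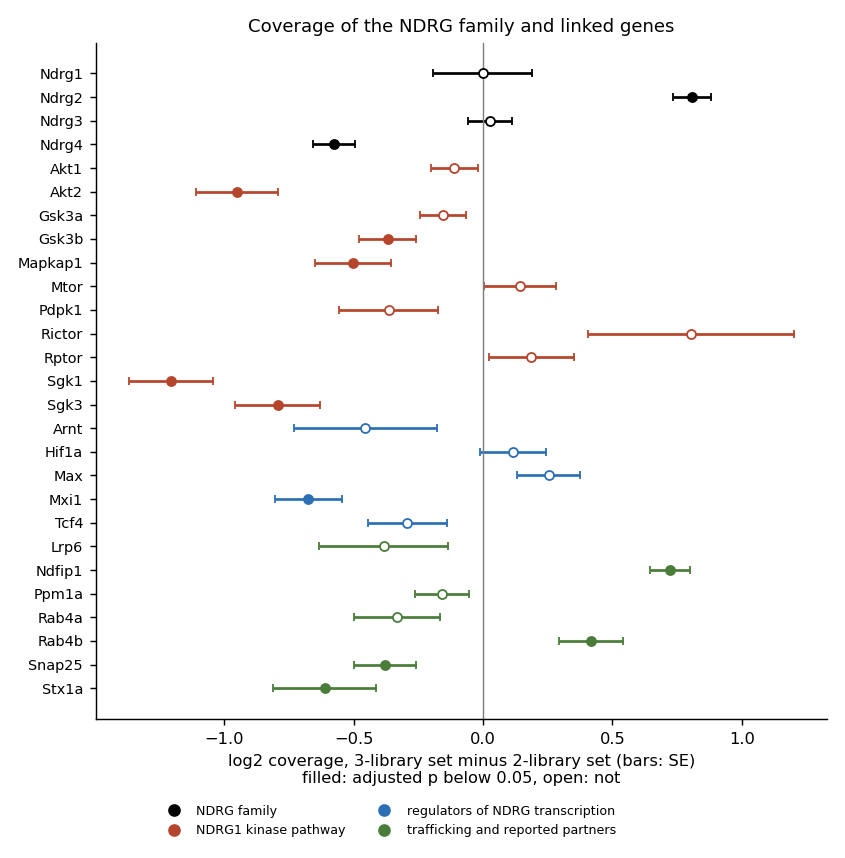
Log2 difference in coverage, 3-library set minus 2-library set, for the 4 NDRG genes (black) and members of the 3 lists (coloured by list), with SE bars; filled points had an adjusted p below 0.05. Ndrg2 lay at 0.81 and Ndrg4 at -0.58, and the 5 filled points of the kinase pathway list lay between -1.21 and -0.37.

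In inclusion, 12 genes of the 3 lists had a fitted event, and 1 of them, Gsk3b, had a called one, against 5.83% of all genes with a fitted event. A 39-nt exon of Gsk3b was included at 0.200, 0.230 and 0.255 in the 3-library set, against 0.138 and 0.052 in the 2-library set. The sets did not overlap, and the difference was 0.92 on the logit scale (SE 0.221, adjusted p = 0.00183, limma). Without replicate 2 of the 2-library set it was 0.61 (adjusted p = 0.229, limma), and the call was also lost with no weights and with no read filter.

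In the dCas9-SET2 table, 4 family events were listed, and none had an adjusted p of the authors below 0.05, against 4.96% of 5287 events with one. The 39-nt exon of Ndrg4, at chromosome 8, 95712325 to 95712363, was included at 0.920 to 0.987 (median 0.949) over the runs of the second set and at 0.897 to 0.982 (median 0.943) over those of the first set. Pooled over 15 distinct runs per set, its inclusion was 0.950 in the second set and 0.944 in the first set, a difference of 0.00564. The ranges of the runs overlapped almost wholly. The authors' deposited table gave a dPSI of 0.0121 and an adjusted p of 0.237. That dPSI was not reproduced here. Mean run levels differed by 0.00689, and pooled levels with the identical runs counted as deposited by 0.00708.

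The 39-nt exon of Ndrg3, at chromosome 2, 156929932 to 156929970, was included at 0.0355 to 0.402 (median 0.115) over the runs of the second set and at 0.0213 to 0.256 (median 0.147) over those of the first set. Each run held 17 to 41 reads in the second set and 21 to 54 in the first set, so a single run is imprecise. The pooled levels were 0.132 in the second set and 0.144 in the first set, a difference of -0.0118 (dPSI -0.0179, adjusted p 0.574 in the authors' deposited table). The 42-nt exon of Ndrg2, at chromosome 14, 51911086 to 51911127, had pooled levels of 0.136 in the second set and 0.146 in the first set, over runs at 0.0594 to 0.210 in the second set and 0.104 to 0.211 in the first set. The authors' deposited table gave it a dPSI of -0.0207, against a pooled difference of -0.0105 here, and an adjusted p of 0.244. The 123-nt exon of Ndrg3, at chromosome 2, 156987676 to 156987798, rested on 2 inclusion and 9 skipping reads in the second set and 5 inclusion and 12 skipping reads in the first set, with an adjusted p of 0.574 in the authors' deposited table.

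**Figure D5:**
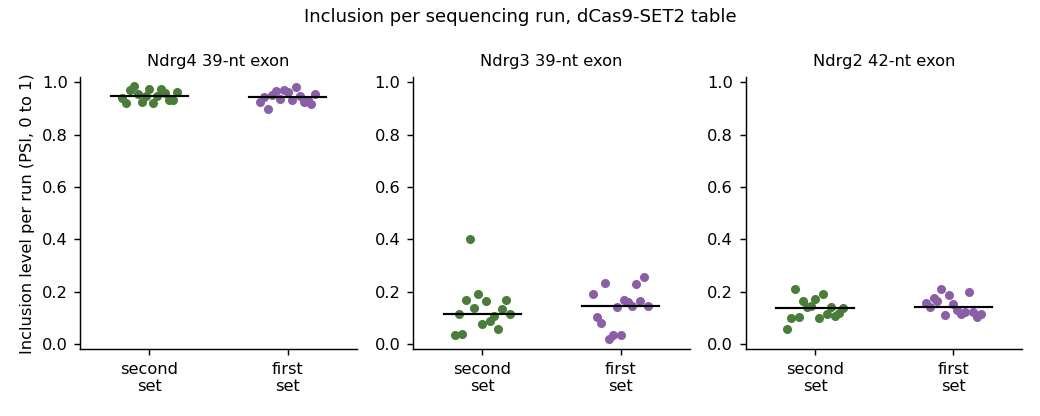
Inclusion level (PSI, 0 to 1) of 3 NDRG exons in each of 15 distinct runs of the second set (green) and the first set (purple) of the dCas9-SET2 table, with the median as a line. The medians were 0.949 in the second set and 0.943 in the first set for Ndrg4, 0.115 in the second set and 0.147 in the first set for Ndrg3, and 0.137 in the second set and 0.141 in the first set for Ndrg2.

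The exons kept their class in both tables: the 39-nt exon of Ndrg4 was mostly included, and the 39-nt exon of Ndrg3 and the 42-nt exon of Ndrg2 mostly skipped. Pooled inclusion of the Ndrg4 exon in the dCas9-SET2 table, 0.950 in the second set and 0.944 in the first set, lay between the levels of the 3-library set and the 2-library set of the HSV table, and so did that of the 39-nt Ndrg3 exon, 0.132 in the second set and 0.144 in the first set. The tables differ in form lengths, depth and coordinates, so this is a description. Reads over the Ndrg4 event had a median of 3178 CPM in the second set and 2707 in the first set, and those over the Ndrg2 event 1923 in the second set and 1385 in the first set, with runs that overlapped for both genes.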

How the data were processed

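RNA of nucleus accumbens was analysed from 2 deposited tables of exon skipping, with sets of libraries as the authors' columns define them. STAR 2.4.1d, Bowtie2, mm9 and mm10 are named in the submitters' processing notes, with no role; no source used here names the event caller. The deposited read counts are whole numbers joined in cells, with no sample names for 5 HSV libraries and 32 dCas9-SET2 runs, so no condition was assigned. The inclusion level score deposited by the authors was recomputed within 0.001 for 100% of values of both tables; the authors' difference score in the HSV table runs the other way and was not used for signs. The p-value, FDR and adjusted p-value (padj) were made by the authors with tests that no source used here names. A count model was planned for counts in columns of their own and was not used.

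Inclusion was fitted with limma (3.58.1, under R 4.3.3) on the logit scale, after adding 0.5 to each count and weighting each value by its reads. The 7754 events fitted averaged at least 20 reads per library and had at least 10 of the rarer form. Coverage was fitted with limma on log2 reads of the deepest event (0.5 added, TMM trims 0.3 and 0.05, trended spread) over 8201 genes, which understates fold changes where reads are few. Tests were two-sided with Benjamini-Hochberg adjustment over all events or genes, called at 0.05, and both fits were tested on simulated data. The simulated inclusion counts varied by read sampling alone and the simulated coverage had the same spread for every gene. The simulation therefore does not show how the inclusion fit handles spread between libraries. Without 1 library of the 2-library set, the other is assumed to vary like the 3-library set. Events of the tables were matched by exon lengths, since 13.1% of HSV exons, against 99.8% of dCas9-SET2 exons, fell within their gene's GRCm38 span. Of 9542 genes of the HSV table, 9430 matched a symbol.

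The members and lists were chosen with earlier results of these data known. Named are all NDRG events, those fitted or in the dCas9-SET2 table in full, the 3 most similar exons of other genes per member, and every called gene of the linked lists, except that some list genes are not reported here by name; genes named as markers come from the marker lists. Alternatives covered weights, spread, filters, count added, scaling and each library left out.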

Additional observations from a re-analysis of the deposited data

How the results depend on the processing

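No paired analysis was possible because the columns of both tables carry no sample names or replicate numbers. The 2 called NDRG exons and the 2 NDRG genes with called coverage were also called with 1 added to each count or a trended spread, under both other filters and the authors' FDR (exons), under the other scalings, with summed events or no filter (coverage), and without any one library. The exception was the inclusion fit with no weights, which called 0 of 7754 events in limma, 0 NDRG events and 0 linked genes among them, with 1 NDRG event at an unadjusted p under 0.05. With no filter beyond 1 read in every library the linked genes called in inclusion were also 0. Leaving out 1 library gave 0 to 1 linked genes in inclusion and 5 to 10 in coverage. No result turned its direction among those called. The PSI difference without 1 library was -0.0637 to -0.0506 for the 39-nt exon of Ndrg4 and 0.0811 to 0.112 for that of Ndrg3. Coverage without 1 library differed by 0.77 to 0.84 on the log2 scale for Ndrg2 and by -0.69 to -0.46 for Ndrg4. The family was chosen by these inclusion levels and reads, so repeated calls of its members are no independent support. The causes were not tested.

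For the paralog order, the median over fitted events gave no value for Ndrg1, which has none. With the identical runs of the dCas9-SET2 table counted as deposited, an alternative chosen after seeing the data, the difference was 0.00708 for the Ndrg4 exon and -0.0168 for the 39-nt exon of Ndrg3. Without 1 run the difference was 0.00209 to 0.00893 for Ndrg4 and -0.0297 to -0.00177 for Ndrg3. Reads limit the dCas9-SET2 values, with 17 to 54 per run at the 39-nt exon of Ndrg3 and 0 to 4 at its 123-nt exon. With sets of 3 and 2 libraries, an event or gene not called is no evidence that it did not differ.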
